A study of Mus musculus with 2 samples.

Results

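Lyve1+ Folr2+ macrophage-like cells were examined among the GFP+ cells of denervated mouse hind limb muscle. They were chosen by their own counts. A barcode was taken when it held at least 5000 unique molecular identifiers (UMIs) with under 10% of them mitochondrial, at least 4 UMIs of Lyve1, Folr2, Cd163 and Fcna over at least 3 of these genes, and at least 3 UMIs of Tyrobp and Fcer1g. It could hold at most 2 UMIs of Gpnmb and at most 1 of Chil3 and Ly6c2. The name Lyve1+ Folr2+ cells is short for this choice, and a member can lack UMIs of any 1 of the 4 genes, Lyve1 or Folr2 included. This choice found 2732 members, which were 31.2% of the 8742 barcodes that passed the depth and mitochondrial limits (95% Clopper-Pearson interval 30.3% to 32.2%) and 7.505% of all 36400 barcodes of the library. The interval covers counting error only, and the share depended on the choice, at 20.4% when barcodes from 2000 UMIs were taken and 17.0% when at least 8 UMIs over all 4 genes were asked for.

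The study addressed the part of Schwann cells in the remodelling of denervated muscle, for which cells with the S100GFP reporter were collected. Tibialis anterior and gastrocnemius muscles were taken 7 days after sciatic nerve crush from mice labelled WT, without the Sod1 deletion of the study's other mice, that carried the transgene S100GFPtg, in which the S100B promoter drives green fluorescent protein, and viable GFP+ cells were sorted into 1 droplet library. The series and the study give 2 months as the age of the male mice used for sequencing, while the study's methods give an older range for crushed mice in general, so the age at crush is uncertain. The number of animals is uncertain as well, since the series speaks of a single crushed mouse and the methods of pooled males. All members, and all barcodes they were set against, share this genotype, injury, sort and library. The minced muscles were digested with enzymes before the sort. The part of this step in RNA levels, such as those of immediate early and chemokine genes, was not tested.

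No uninjured muscle, no GFP- cells and no replicate were analysed here. Cells of 1 library are not replicates of a condition, so no test was made, no p-value is given, and every interval covers counting error only. Levels are the UMIs of a gene summed over a group of barcodes for each 1000000 UMIs of that group (CPM). The members held a median of 11893 UMIs (10th percentile 7166, 90th percentile 19056) over a median of 3318 genes, with a median of 4.08% mitochondrial counts.

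Macrophages that carry Lyve1, Folr2 and Cd163 are found in many tissues, often along blood vessels. They are known for scavenging, clearance of dead cells, handling of iron and release of growth factors. Lyve1 is a hyaluronan receptor, Folr2 a folate receptor, Cd163 the scavenger receptor for haemoglobin bound to haptoglobin, and Fcna a ficolin, a soluble pattern recognition lectin that starts the lectin pathway of complement. In injured muscle and nerve such cells are joined by monocytes from blood, which carry Ccr2 and Ly6c2 and then take on macrophage genes. Length of residence cannot be read from RNA counts, so the cells are named here by their genes alone.

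The promoters of genes that define the choice, and of the leading chemokine gene, are shown here because the results turn on these genes and the factors Maf and Spi1 are described with them below. Each is the 250 bases before the listed start of transcription in RefSeq for GRCm38.p6, read 5′ to 3′ on the strand of the gene. Entries were matched for 3 of the 4 genes of the choice and for 31 of the 40 genes ranked by their difference from other myeloid barcodes. Capitals mark GAGGAA or its reverse complement TTCCTC, the core letters bound by PU.1, and TGCTGA or its reverse complement TCAGCA, the core letters of the MAF recognition element, on either strand. The listed start is inside the gene for Cd163, whose window runs a short way past the gene's first base, and for Fcna, whose window lies wholly inside the gene, so the Fcna sequence is not that before the gene's first base. The regions lie at chr7:101857191-101857440 on the minus strand for Folr2, chr6:124304401-124304650 on the plus strand for Cd163, chr2:25627975-25628224 on the minus strand for Fcna and chr11:82114935-82115184 on the plus strand for Ccl8, the chemokine gene with the highest ratio.
Folr2: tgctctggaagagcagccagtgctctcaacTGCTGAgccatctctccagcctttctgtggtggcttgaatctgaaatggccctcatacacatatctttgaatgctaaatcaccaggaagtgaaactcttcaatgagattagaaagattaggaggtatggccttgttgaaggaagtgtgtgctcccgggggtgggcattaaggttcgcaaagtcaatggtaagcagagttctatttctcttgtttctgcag
Cd163: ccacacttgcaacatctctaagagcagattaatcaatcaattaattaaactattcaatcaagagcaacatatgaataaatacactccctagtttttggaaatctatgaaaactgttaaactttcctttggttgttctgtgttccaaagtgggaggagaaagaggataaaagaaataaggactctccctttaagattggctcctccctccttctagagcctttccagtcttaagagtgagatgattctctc
Fcna: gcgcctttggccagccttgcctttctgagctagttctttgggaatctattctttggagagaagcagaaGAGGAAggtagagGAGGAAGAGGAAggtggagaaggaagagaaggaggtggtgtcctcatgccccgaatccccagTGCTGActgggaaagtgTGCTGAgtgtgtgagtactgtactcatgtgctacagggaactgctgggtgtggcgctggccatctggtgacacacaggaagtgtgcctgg
Ccl8: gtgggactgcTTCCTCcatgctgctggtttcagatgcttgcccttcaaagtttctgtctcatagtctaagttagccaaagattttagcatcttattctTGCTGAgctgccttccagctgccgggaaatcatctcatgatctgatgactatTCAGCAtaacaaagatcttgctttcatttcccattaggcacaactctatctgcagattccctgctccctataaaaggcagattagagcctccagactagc

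These windows held the PU.1 letters 3 times in Fcna and once in Ccl8, and the MAF letters once in Folr2, 2 times in Fcna and 2 times in Ccl8, with neither in Cd163. The motifs did not overlap each other in letters. Of the 20 matched promoters among the 25 genes with the highest ratio, 4 (20.0%) held the PU.1 letters and 5 (25%) the MAF letters. Among 27025 promoters of the same length in RefSeq, the shares were 23.1% and 15.8%. Of the 11 matched promoters among the 15 genes with the lowest ratio, 5 (45.5%) held the PU.1 letters and 0 the MAF letters. A match describes these letters only.

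The 4 genes of the choice set the members apart by construction, and their values describe what was chosen. Lyve1 (ENSMUSG00000030787, chr7:110850607-110862953) stood at 497 CPM in members against 34.6 in the 3851 other myeloid barcodes, which met the same depth, mitochondrial and Tyrobp and Fcer1g limits but not the rest of the choice. Folr2 (ENSMUSG00000032725, chr7:101839988-101857190) stood at 712 against 100.2 CPM. Cd163 (ENSMUSG00000008845, chr6:124304636-124330529) stood at 797 against 108 CPM. Fcna (ENSMUSG00000026938, chr2:25624665-25635440) stood at 275 against 8.68 CPM.

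Free RNA in droplets gives UMIs to cells that do not make a gene, so shares of barcodes were set against 1531 stromal barcodes with at least 20 UMIs of Col1a1, Col3a1 and Dcn and at most 1 of Tyrobp and Fcer1g. After each barcode was thinned to 5000 UMIs, Lyve1 was present in 75.4% of members (89.6% before thinning), 8.49% of other myeloid barcodes and 1.04% of stromal barcodes. Fcna was present in 56.7%, 3.69% and 0.718% in the same order. The median depths of the 3 groups before thinning were 11893, 10955 and 14699 UMIs. All 4 genes of the choice were present in 1519 members (55.6%), and a member held a median of 24 UMIs of them (10th percentile 9, highest 154).

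Values on the sides of the border of the choice were close for some genes and apart for others. The 33 members with exactly 4 UMIs of the 4 genes held Ccl8 at 396 CPM, Mrc1 at 1556 CPM, H2-Aa at 1264 CPM and P2rx7 at 258 CPM. The 27 barcodes just outside, with 3 UMIs over 3 genes, held Ccl8 at 387 CPM, Mrc1 at 1838 CPM, H2-Aa at 3028 CPM and P2rx7 at 77.4 CPM. Another 721 barcodes outside the choice had 4 or more UMIs over only 2 of the genes, and they held Ccl8 at 746 CPM, F13a1 at 1344 CPM, Mrc1 at 2492 CPM, P2rx7 at 216 CPM, H2-Aa at 2967 CPM, Cd74 at 6653 CPM and Ccr2 at 219 CPM. They gave 6056 of the 11261 Ccl8 UMIs of the other myeloid barcodes. The 254 members with 5 to 9 UMIs of the 4 genes were close to them in Ccl8 (757 CPM), F13a1 (1336 CPM) and Mrc1 (2352 CPM), but apart in P2rx7 (303 CPM), H2-Aa (2026 CPM), Cd74 (4567 CPM) and Ccr2 (112 CPM). Ccl8 stood at 1467 CPM in the 741 members with 10 to 19 and at 2850 CPM in the 1704 with 20 or more. Median depth was also higher along these 3 bins of members, at 8500, 9911 and 13126 UMIs.

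**Figure D1:**
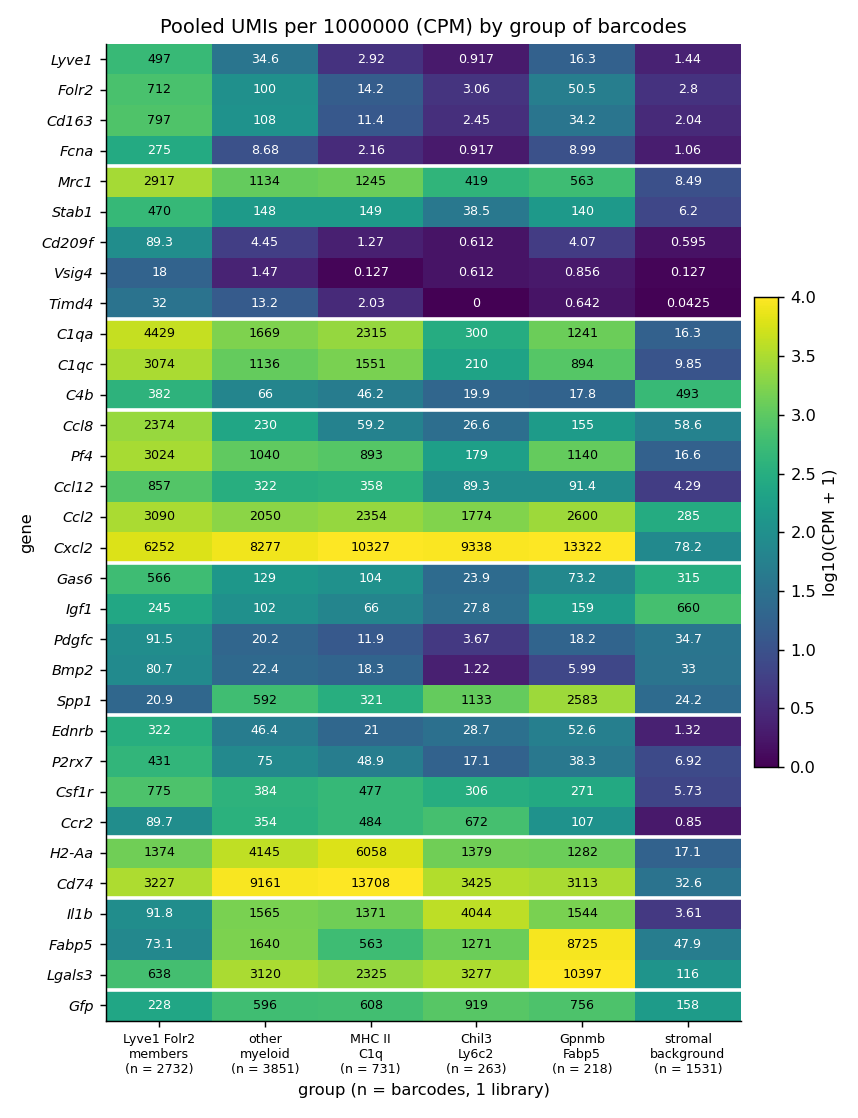
Heat map of pooled levels of genes (rows) in the Lyve1+ Folr2+ cells and 5 other groups of barcodes of the same library (columns), with the CPM written in each cell and colour for log10(CPM + 1). Ccl8 stood at 2374 CPM in the members and at 26.6 to 230.0 CPM in the myeloid groups beside them, while Gfp stood lowest in the members among the myeloid groups.

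General macrophage genes were present in the members. Of 14 macrophage genes, 5 were higher in members by at least 2-fold and none was lower, with a median log2 ratio of 0.62. Over all 9870 genes with a mean of at least 5 CPM, the 9 genes of the choice left out, 565 (5.72%) were higher in members than in other myeloid barcodes by 2-fold or more, 513 (5.20%) were lower, and the median log2 ratio was 0.06. The 5 were Mrc1 (the mannose receptor), Csf1r (the receptor that macrophages depend on for survival), Mertk (a receptor for dying cells), C1qa and C1qc. Mrc1 stood at 2917 CPM (interval 2899 to 2934) against 1134 and Csf1r at 775 against 384 CPM. Adgre1, which encodes F4/80, stood at 460 against 255 CPM, and Lyz2 at 9619 against 9200 CPM. The markers of a macrophage were thus present. With a stricter choice of at least 8 UMIs over all 4 genes, which puts the members left out among the barcodes compared, the log2 ratios of Mrc1 (0.99), Mertk (1.00) and Csf1r (0.73) lay under 2-fold.

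Lyve1 is also a gene of lymphatic endothelium, of which 8 other markers summed to 24.6 CPM in members, 64.4 in other myeloid barcodes and 326 in stromal barcodes. Pdpn, which stromal cells also make, gave 21.2 CPM of the sum in members. Mmrn1 had 0 UMIs (upper limit of the exact interval 0.105 CPM), Flt4 had 4 UMIs and Prox1 had 50 UMIs, against 17400 UMIs of Lyve1.

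Among genes with a mean of at least 20 CPM over the members and the other myeloid barcodes, those with the highest ratio were Cd209f, a C-type lectin of the DC-SIGN family, and Atp1b1, a subunit of the sodium pump. Cd209f stood at 89.3 against 4.45 CPM, a log2 ratio of 4.33 (interval 4.13 to 4.53). Atp1b1 stood at 207 against 12.2 CPM, a log2 ratio of 4.09 (3.97 to 4.22). Ccl8 (chr11:82115185-82116799), a chemokine that attracts monocytes and T cells, came next at 2374 against 230.0 CPM (log2 ratio 3.37, interval 3.34 to 3.40).

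The rest of the 25 highest genes came from several functions. Ednrb, the endothelin receptor type B, stood at 322 against 46.4 CPM (log2 ratio 2.80). Tslp, a cytokine better known from epithelium, stood at 74.9 against 10.9 CPM. Genes of membrane transport and metabolism were also among the 25, with Fxyd2 (a regulator of the sodium pump) at 240 against 45.7 CPM, Slc39a12 (a zinc transporter) at 176 against 36.5 CPM and Cbr2 (a carbonyl reductase) at 546 against 112 CPM. The others included Chp2, Plekhg5, Cnrip1, Selenbp1, Nrcam, Npl, Pdgfc, Cmah, Ppp1r9a, S1pr1, Ctla2b and Tmod1, with log2 ratios from 2.04 to 2.86, together with C4b, P2rx7, Ltc4s and Gas6, which are described with their lists.

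**Figure D2:**
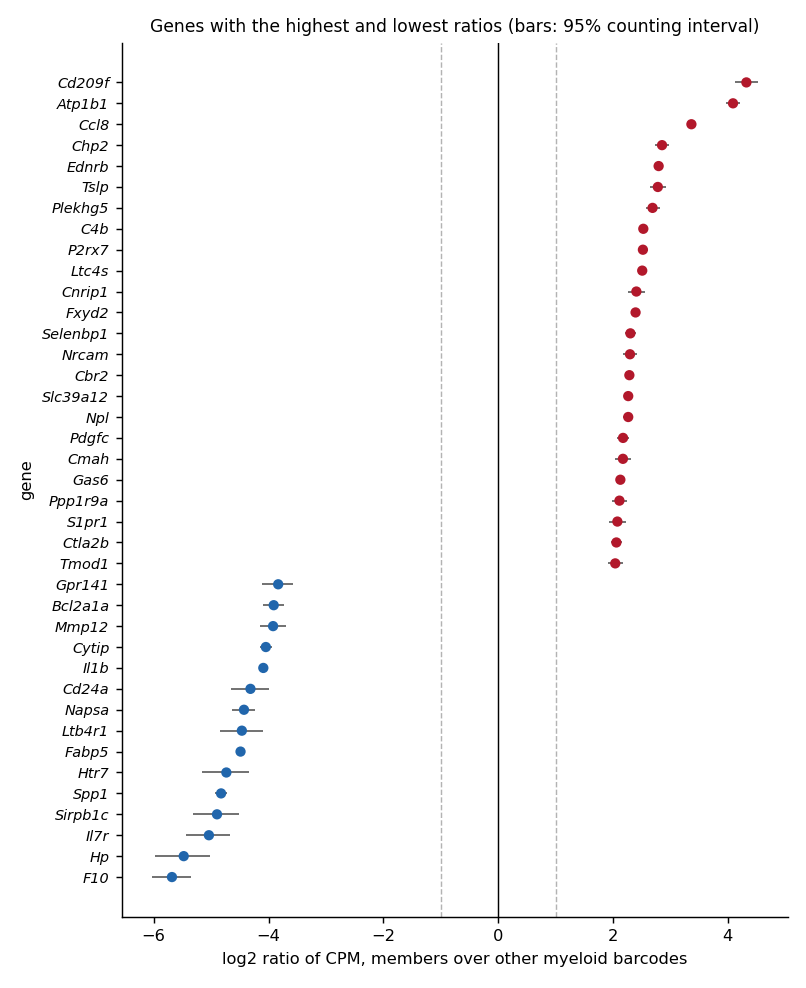
Genes among the 25 with the highest log2 ratio, and the 15 with the lowest, of CPM between Lyve1+ Folr2+ cells and other myeloid barcodes, among genes with a mean of at least 20 CPM, with exact 95% intervals of counting. Ratios ran from 4.33 for Cd209f to −5.68 for F10.

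Scavenger and lectin receptors were the list with the highest median against other myeloid barcodes apart from the genes of the choice. Of 19 such genes that passed the minimum level, out of 21 measured, 11 were higher by 2-fold and 1, Cd209a, was lower, with a median log2 ratio of 1.30 (0.06 over all genes). Besides Mrc1 and Cd209f, Stab1 (a receptor for modified lipoproteins and dying cells) stood at 470 against 148 CPM, Clec10a (a lectin for galactose) at 434 against 146 CPM and Colec12 (a scavenger receptor with a collagen stalk) at 155 against 39.8 CPM. Colec12 stood at 235 CPM in stromal barcodes, above the members.

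In the family of Cd209 lectins, the genes b, d, f and g were higher and Cd209a was lower, at 17.9 against 59.7 CPM. The direction of Cd209a turned with the barcodes compared, since it stood at 0.428 CPM in Gpnmb Fabp5, 7.03 CPM in Chil3 Ly6c2 and 11.1 CPM in MHC class II C1q macrophages and monocytes, 3 groups described below, the last within 2-fold of the members. Cd209b stood at 25.5 against 2.21 CPM, Cd209d at 50.3 against 20.4 CPM and Cd209g at 34.9 against 1.59 CPM. These genes are paralogs, so the split of reads between them is uncertain. Timd4, a phosphatidylserine receptor of long-lived tissue macrophages, stood at 32.0 against 13.2 CPM and was found in 11.9% of members after thinning, and Vsig4, a complement receptor, stood at 18.0 against 1.47 CPM. Against barcodes with at most 1 UMI of the 4 genes, the log2 ratio of Timd4 was 0.90. Siglec1, a sialic acid receptor, stood at 37.1 against 11.6 CPM.

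Complement genes were higher as a list, with 7 of 21 higher, 1 lower and a median log2 ratio of 0.77. C1qa stood at 4429 against 1669 CPM, C1qb at 3915 against 1961 CPM and C1qc at 3074 against 1136 CPM, and all 3 encode chains of C1q, which starts the classical pathway. C4b, the next component of that pathway, stood at 381 against 66.03 CPM, and stromal barcodes held more of it, at 493 CPM. C3, the central component, did not reach 2-fold, at 64.0 against 108 CPM with 1739 CPM in stromal barcodes, and its log2 ratio of −0.76 became −1.65 with barcodes of at least 0.5% mesenchymal UMIs left out. Itgax, a chain of complement receptor 4 that is best known from dendritic cells, was the gene that was lower, at 1.72 against 24.0 CPM.

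Chemokine ligands divided. Of 23, 5 were higher (Ccl8, Ccl12, Ccl24, Cxcl13 and Pf4), 5 were lower (Ccl5, Ccl17, Ccl22, Cxcl3 and Cxcl9) and the median log2 ratio was −0.32. Pf4, also called Cxcl4, stood at 3024 against 1040 CPM, Ccl12, a ligand of Ccr2, at 857 against 322 CPM, and Ccl24, a ligand for eosinophils, at 244 against 84.9 CPM. Ccl2 at 3090 against 2050 CPM and Ccl7 at 2198 against 1223 CPM, both ligands of Ccr2, did not reach 2-fold, and neither did the neutrophil attractant Cxcl2, at 6252 against 8277 CPM. Ccl17 (2.00 against 29.1 CPM) and Ccl22 (1.74 against 16.8 CPM), which dendritic cells release, were among the genes that were lower.

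Of 9 chemokine receptors, 0 were higher and 4 lower, among them Ccr2, Ccr7 and Ccrl2, with a median log2 ratio of −0.68. Ccr2, which brings monocytes from blood to tissue, stood at 89.7 CPM (86.6 to 92.9) against 354 CPM and was present in 18.1% of members and 58.0% of other myeloid barcodes after thinning. Cx3cr1, the fractalkine receptor, stood at 88.5 against 102 CPM and did not reach 2-fold.

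Growth factors and mediators held as many higher as lower genes, 6 and 6 of 24, with a median log2 ratio of −0.02. Gas6, which bridges dying cells to the receptors Mertk and Axl, stood at 566 against 129 CPM (log2 ratio 2.13, interval 2.09 to 2.17). Igf1, a growth factor for muscle, stood at 245 against 102 CPM, and stromal barcodes held more of it, at 660 CPM. Its log2 ratio of 1.26 was 0.73 when barcodes from 2000 UMIs were taken. Pdgfc at 91.5 against 20.2 CPM, Bmp2 at 80.7 against 22.4 CPM, Vegfb and Apoe (22194 against 10601 CPM) were the other members of the list that were higher. The log2 ratio of Apoe, 1.07, was 0.78 with at least 8 UMIs over all 4 genes of the choice and 0.94 with equal weight per barcode. The lower ones were Spp1 (osteopontin), at 20.9 against 592 CPM, Fn1 (fibronectin, which stromal cells also make), at 93.2 against 563 CPM, Nrg1 (neuregulin, which acts on Schwann cells), at 6.49 against 82.9 CPM, Vegfa, at 5.46 against 46.3 CPM, and Areg and Il1rn. With barcodes of at least 0.5% mesenchymal UMIs left out, the log2 ratio of Fn1 went from −2.60 to −4.73 and that of Vegfa from −3.08 to −4.11. Tgfb1 stood at 283 against 228 CPM.

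Iron and heme genes were higher in 5 of 14 and lower in none, with a median log2 ratio of 0.84. Their summed level was 16191 CPM in members and 18264 CPM in other myeloid barcodes, most of it from the ferritin genes Fth1, at 7269 against 9850 CPM, and Ftl1, at 6607 against 7140 CPM. Slc40a1, the iron exporter ferroportin, stood at 30.3 against 7.15 CPM, Trf (transferrin) at 661 against 302 CPM and Cp (ceruloplasmin, which oxidizes iron for export) at 88.4 against 24.4 CPM. Blvrb and Tfrc were the others. Hmox1, which breaks down heme, stood at 537 against 350 CPM and did not reach 2-fold.

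Genes of apoptotic cell uptake were mixed, with 5 of 18 higher and 4 lower and a median log2 ratio of 0.13. Of the receptors for Gas6 and Pros1, Mertk stood at 203 against 79.9 CPM and Axl at 23.3 against 52.0 CPM. The ligand Pros1 (protein S) stood at 189 against 66.01 CPM. Havcr2, Cd300lf and Tgm2 were lower with Axl.

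Purinergic and eicosanoid genes were higher in 7 of 18 and lower in 1, with a median log2 ratio of 0.54. P2rx7, a channel opened by extracellular ATP, stood at 431 (424 to 438) against 75.03 CPM, and the ADP receptors P2ry12 at 78.0 against 23.9 CPM and P2ry13 at 19.8 against 5.15 CPM. Ltc4s, which makes leukotriene C4, stood at 295 against 51.7 CPM, Alox5, which makes its precursor, at 59.9 against 18.7 CPM, and Hpgds, a prostaglandin D2 synthase, at 226 against 83.4 CPM. The receptor gene Ptger2 was lower, at 1.94 against 8.25 CPM.

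Transcription factors differed less. Of 26, 1 was higher and 4 were lower, with a median log2 ratio of 0.03. Maf, a factor of mature macrophages, was the higher one, at 1333 (1321 to 1345) against 476 CPM, while Spi1, which encodes PU.1, stood at 309 against 300 CPM. Bhlhe40 was at 14.7 against 144 CPM, Runx3 at 8.72 against 43.1 CPM, Pparg at 23.2 against 47.1 CPM and Nr1h3 at 2.69 against 12.9 CPM. Of 7 genes of the colony stimulating factor system, Csf1r was higher, and Csf2rb, the shared receptor chain for GM-CSF, was lower at 37.4 against 98.2 CPM, as was Flt3 at 2.34 against 27.9 CPM.

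Antigen presentation by MHC class II was lower across the list. All 10 of the genes that passed the minimum level were lower by 2-fold or more, with a median log2 ratio of −1.80, and the list summed to 6703 CPM in members and 20594 CPM in other myeloid barcodes. H2-Aa stood at 1374 against 4145 CPM (log2 ratio −1.59, interval −1.61 to −1.58), Cd74, the invariant chain, at 3227 against 9161 CPM and Ciita, the activator of these genes, at 12.5 against 30.4 CPM. The other myeloid barcodes also held dendritic cell markers at a summed 323 CPM against 77.1 CPM in members, and their part in this difference was not tested.

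Monocyte genes were lower in 14 of 17 and higher in 1, with a median log2 ratio of −2.54. Chil3 and Ly6c2 are monocyte genes too, but belonged to the choice and were not counted. F10 (coagulation factor X) stood at 2.20 against 113 CPM, Hp (haptoglobin) at 1.09 against 48.4 CPM and S100a4 at 447 against 1492 CPM. The gene that was higher was F13a1, coagulation factor XIII A, at 2046 (2031 to 2061) against 548 CPM.

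Inflammatory cytokines and enzymes were lower in 7 of 13 and higher in none, with a median log2 ratio of −2.15. Il1b stood at 91.8 (88.7 to 95.1) against 1565 CPM, Ptgs2 at 46.0 against 319 CPM and Clec4e at 31.5 against 301 CPM. Tnf did not follow them, at 567 against 437 CPM, and Nlrp3 stood at 308 against 393 CPM.

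Genes of lipid-associated macrophages were lower in 7 of 17 and higher in 2, with a median log2 ratio of −0.38. Fabp5 stood at 73.1 against 1640 CPM, Lgals3 (galectin 3) at 638 against 3120 CPM and Lpl at 146 against 571 CPM. Gpnmb belonged to the choice and was not counted. Apoe, with the limits given above, and Ch25h, whose log2 ratio of 1.52 was 0.48 with at least 8 UMIs over all 4 genes of the choice, were higher, and Trem2, the lipid receptor of such macrophages, stood at 393 against 356 CPM.

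Against other myeloid barcodes, 3 further lists had at most 1 gene past 2-fold in each direction. Lysosomal proteases had 1 of 16 higher (Ctsf) and 1 lower (Ctsk), interferon response genes 0 higher and 1 of 18 lower (Ifi205), and cell cycle genes 0 higher and 1 of 16 lower (Ube2c), with Mki67 at 42.5 against 56.2 CPM. Of 20 immediate early and heat shock genes, 4 were higher (Jun, Egr1, Egr2 and Hspa1a) and 0 lower, where 5.72% of all genes were higher, with a median log2 ratio of 0.46 and Jun at 1172 against 521 CPM. Jun, Egr1 and Hspa1a lost the 2-fold difference when barcodes from 2000 UMIs were taken, with log2 ratios of 0.98, 0.78 and 0.96. Of 11 genes of axon guidance past the minimum level, 2 were higher and 1 lower, with a median log2 ratio of −0.05. Nrp1, a coreceptor for semaphorins and VEGF, stood at 325 against 156 CPM and Sema6d at 28.3 against 8.84 CPM. Sema4d was the lower one, at 12.7 against 82.7 CPM.

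**Figure D3:**
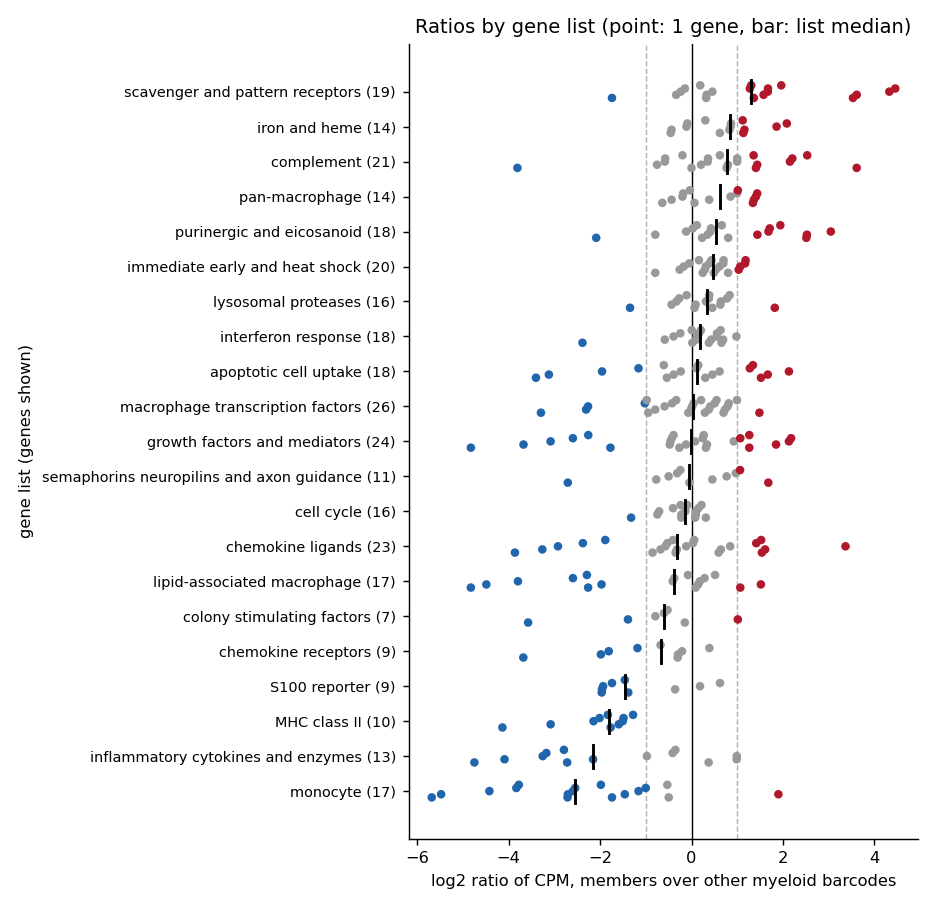
Log2 ratio of CPM between Lyve1+ Folr2+ cells and other myeloid barcodes for each gene of the lists, with 1 row per list, 1 point per gene and a bar at the median of each list. Dashed lines mark 2-fold. The MHC class II and monocyte lists lay mostly below 0 (medians −1.80 and −2.54), and the scavenger receptor list mostly above it (median 1.30).

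The reporter that the cells were sorted on was low in the Lyve1+ Folr2+ cells. Gfp stood at 228 CPM (223 to 234) in members and 596 CPM (589 to 603) in other myeloid barcodes, a log2 ratio of −1.38 (−1.42 to −1.35), and at 158 CPM in stromal barcodes. After thinning, Gfp was present in 53.7% of members (51.8% to 55.6%), 71.2% of other myeloid barcodes and 36.2% of stromal barcodes. Before thinning the shares were 73.5%, 83.4% and 56.4%. A member held a median of 1 Gfp UMI after thinning, with a 90th percentile of 3 and a highest value of 18.

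Since all cells had passed the same sort, the share in stromal barcodes does not measure free RNA alone, and the part of free Gfp RNA was not tested. By UMIs of the 4 genes of the choice, Gfp stood at 230.2 CPM (181 to 288) in the members with exactly 4, 310 CPM in those with 5 to 9, 262 CPM in those with 10 to 19 and 210 CPM (204 to 215) in those with 20 or more. Outside the choice, Gfp lay in the same range in the 27 barcodes with 3 UMIs over 3 genes, at 293 CPM (230 to 370). The 721 with at least 4 UMIs over 2 genes held it at 282 CPM (270 to 293). Gfp was higher in the 183 with at least 4 UMIs over 1 gene, at 418 CPM (391 to 446). In the 52 that met the 4 genes of the choice but not the limits on Gpnmb, Chil3 and Ly6c2, it was 581 CPM (539 to 626). S100b itself was at 1.92 CPM in members and 1.35 in other myeloid barcodes. Sox10, a defining Schwann cell gene, was near 0, at 0.372 CPM. Of 9 genes in the list of the reporter and its S100 relatives, 6 were lower (Gfp, S100a4, S100a6, S100a8, S100a9 and S100a11) and 0 higher. For S100a8 and S100a9 the direction turned with the barcodes compared. S100a9 stood at 18.98 CPM in members, 73.8 CPM in other myeloid barcodes, 1.78 CPM in the MHC class II C1q group, 0.214 CPM in the Gpnmb Fabp5 group and 548 CPM in the Chil3 Ly6c2 group, all 3 described below. S100a8 stood at 12.6, 48.1, 3.30, 12.6 and 340 CPM in the same order. Both genes were among the leading genes of a subcluster of 131 members, given under other observations, so the pooled values do not describe members evenly.

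The members were then set beside 3 groups of macrophages and monocytes of the same library. The first had 731 barcodes with at least 6 UMIs of C1q genes and 20 of MHC class II genes, and the second 263 barcodes with at least 4 UMIs of Chil3 and Ly6c2, genes of recent monocytes, both with at most 1 UMI of the 4 genes of the choice. The third had 218 barcodes outside the choice with at least 3 UMIs each of Gpnmb and Fabp5, and no limit on the 4 genes. It was widened in this way after the data were seen, since the group as planned held 39 barcodes, against which 1953 of 9586 genes (20.4%) were higher in members and 957 (9.98%) lower. Each group is contained in the other myeloid barcodes, so these values are not independent of those above, and the genes a group was chosen by are no result for it. Among about equal numbers of genes, 586 of 9783 (5.99%) were higher in members than in the MHC class II C1q group and 401 (4.10%) lower. Against the Chil3 Ly6c2 group 1794 of 9587 (18.7%) were higher and 809 (8.44%) lower, and against the Gpnmb Fabp5 group 1774 of 9522 (18.6%) and 660 (6.93%).

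Ccl8, Cd209f and Atp1b1 were higher in members against each of the 3 groups. The log2 ratios of Ccl8 were 5.33, 6.48 and 3.94 in the order MHC class II C1q, Chil3 Ly6c2 and Gpnmb Fabp5. Those of Atp1b1 were 6.50, 7.08 and 6.22, and those of Gas6 were 2.45, 4.57 and 2.95. Mrc1 was closest to the MHC class II C1q group (1.23, 2.80 and 2.37), and F13a1 was about as far from each (2.32, 2.31 and 2.75). Il1b and Spp1 were lower against each, with log2 ratios of −3.90, −5.46 and −4.07 for Il1b and −3.94, −5.76 and −6.95 for Spp1.

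Cell cycle, immediate early and interferon response genes were read beside the shares of all genes that were higher in members, which were 18.6%, 18.7% and 5.99% against the Gpnmb Fabp5, Chil3 Ly6c2 and MHC class II C1q groups. Of the cell cycle genes, 10 of 14 were higher in members than in the Gpnmb Fabp5 group (median log2 ratio 1.13). Against the Chil3 Ly6c2 group 9 of 13 were higher (1.66), with 0 lower against either. Against the MHC class II C1q group 0 of 16 were higher and 2 lower (0.13). These are pooled levels, to which few barcodes can give much. After thinning, a member held a median of 2 UMIs of the 19 measured cell cycle genes, with a 90th percentile of 6 and a highest value of 66. Of the 20 immediate early and heat shock genes, 11 were higher against the Gpnmb Fabp5 group (1.33), 11 against the Chil3 Ly6c2 group (1.09) and 1, Jun, against the MHC class II C1q group (0.17), and 0 were lower against any of them. Of 18 interferon response genes, 8 were higher and 1 lower against the Gpnmb Fabp5 group (0.80), 5 higher and 3 lower against the Chil3 Ly6c2 group (0.57), and 1 higher and 1 lower against the MHC class II C1q group (0.15).

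Gfp was lower in members than in each of the 3 groups, with log2 ratios of −1.41, −2.01 and −1.73. H2-Aa in the members was like that of the Chil3 Ly6c2 and Gpnmb Fabp5 groups, with log2 ratios of −0.01 and 0.10, and was far below the MHC class II C1q group, which was chosen for it. Ccr2 stood at 89.7 CPM in members, 107 in the Gpnmb Fabp5 group, 484 in the MHC class II C1q group and 672 in the Chil3 Ly6c2 group.

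Marker genes of other cell types were also counted in the members, and the values are given for whole lists. Their source was not tested. The 14 mesenchymal genes summed to 1883 CPM in members, 3574 in other myeloid barcodes and 61449 in stromal barcodes. The mesenchymal UMIs were held by few members, since the median member had 0.0190% of its UMIs in the list while 142 members (5.20%) had at least 0.5%, against 364 (9.45%) of the other myeloid barcodes. T and NK genes summed to 26.9 against 58.6 CPM with Trbc2 at 0, neutrophil genes to 86.6 against 201 CPM with Ly6g at 0, mast cell genes to 2.74 against 29.2 CPM with Ms4a2 at 0, and endothelial genes to 103 against 370 CPM. Schwann cell genes summed to 58.3 against 39.5 CPM. Satellite cell genes summed to 492 against 384 CPM, of which Sdc4, a syndecan that other cells also make, gave 470 and 360 CPM. Muscle fibre, smooth muscle and tenocyte genes summed to 232, 135 and 128 CPM in members and to 331, 74.4 and 346 CPM in other myeloid barcodes.

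Members varied widely among themselves in MHC class II genes, chemokines and Retnla. After thinning to 5000 UMIs, the sum of H2-Aa, H2-Ab1, H2-Eb1 and Cd74 had a median of 4 UMIs in a member, a 90th percentile of 118 and a highest value of 382, and 678 members (24.8%) had 0. Its variance was 91.9 times its mean, a value for a sum of genes that were found in the same members. The sum of the 3 C1q genes varied far less, with a median of 57, a 10th percentile of 32, a 90th percentile of 86 and a variance of 7.84 times its mean, and 1 member had 0. The median of this ratio over 695 genes was 1.62.

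Among single genes, Retnla, a resistin-like protein of alternatively activated macrophages, had a ratio of 82.2, was present in 13.03% of members after thinning and reached 287 UMIs. Ccl8 had a ratio of 45.4, was present in 69.0% of members after thinning and 77.1% before, and had a median of 3, a 90th percentile of 32 and a highest value of 274 UMIs. Cd74 came next at 42.5, followed by Dcn at 37.1, Apoe at 35.3 and Col3a1 at 33.7, while H2-Aa had 22.7. Cxcl2, Ccl4, Ccl7 and Ccl2 had ratios of 33.36, 26.28, 14.96 and 14.65. The Cd209 genes were held by few members, since 79.3% had 0 UMIs of Cd209b, Cd209d, Cd209f and Cd209g together and 1 member had 53.

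**Figure D4:**
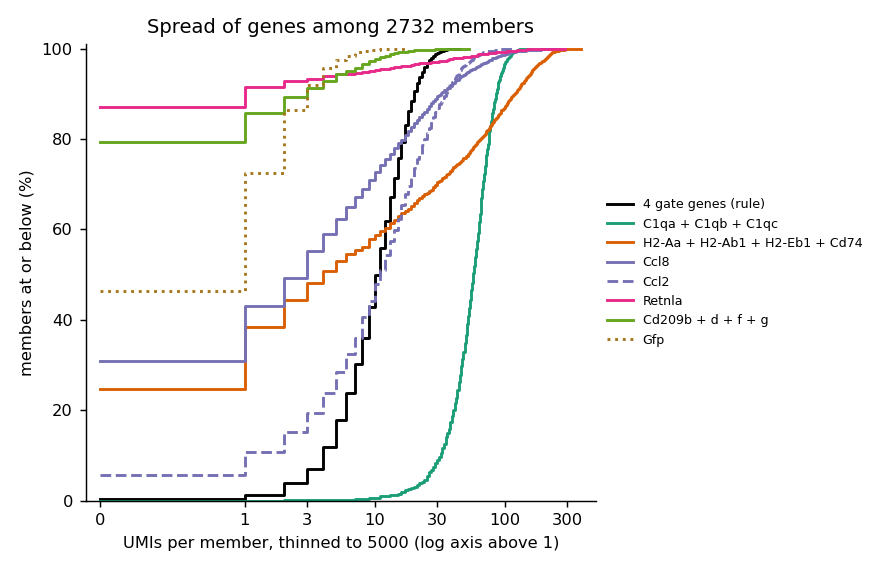
Distributions over the 2732 Lyve1+ Folr2+ cells of UMIs after thinning to 5000, as the percent of members at or below each count (vertical axis) against the count, on a log axis above 1 UMI. The MHC class II sum was spread from 0 to 382 with a median of 4, while the C1q sum lay around its median of 57.

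Correlations across members describe which genes were found in the same barcodes, all from 1 library and of equal depth after thinning. Pearson correlations of log values over 2732 members were 0.930 for H2-Aa with H2-Eb1, 0.712 for Ccl2 with Ccl7, 0.677 for C1qa with C1qb, 0.618 for Ccl4 with Cxcl2 and 0.552 for Fos with Jun. H2-Aa with Ccr2 gave 0.450. The mesenchymal genes Col1a1 with Dcn gave 0.862.

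The members were also ordered by their sum of MHC class II UMIs and divided into 4 equal groups of 683, an order chosen once the spread had been seen. The medians of the sum were 0, 1, 15 and 103 UMIs, ties were split by the order of barcodes, and the median depths were 12850, 11781, 11385 and 11288 UMIs. Between the highest and lowest groups, 54 of 5499 genes other than those of MHC class II, with a mean of at least 20 CPM over both, were higher by 2-fold and 84 lower, and with members of at least 0.5% mesenchymal UMIs left out, which kept 662 and 657 members, 58 of 5445 genes were higher and 41 lower. Of 7 monocyte genes with a mean of at least 20 CPM over the lowest and highest groups, Ccr2 was higher by 2-fold in the highest group and 0 were lower, with a median log2 ratio of 0.34. With those members left out, 2 of the 7 were higher and 0 lower, with a median of 0.48. Ccr2 stood at 17.1, 18.1, 73.9 and 258 CPM from the lowest to the highest group, while S100a4 stood at 367, 345, 450 and 634 CPM and F13a1 at 2119, 2100, 2062 and 1895 CPM, both within 2-fold. Of 9 inflammatory genes at the same level, 2 were higher by 2-fold, Il1b and Clec4e, and 0 lower, with Il1b at 54.1, 45.8, 75.9 and 196 CPM. Their median log2 ratio was 0.42, and with the same members left out 3 of the 9 were higher and 0 lower, with a median of 0.78. Retnla stood at 27.4, 139, 498 and 1593 CPM, and Gfp at 173, 197, 252 and 298 CPM.

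Of the 25 genes with the highest ratio against other myeloid barcodes, 8 were lower by 2-fold in the group with the most MHC class II than in that with the least, and 0 were higher, with a median log2 ratio of −0.73. With members of at least 0.5% mesenchymal UMIs left out, 8 of the 25 were again lower and 0 higher, with a median of −0.76. Ccl8 stood at 2877, 3090, 2245 and 1227 CPM, P2rx7 at 592, 579, 343 and 194 CPM, and Atp1b1 at 258, 242, 229 and 94.9 CPM. Cd209f, the first of the 25, did not follow them, at 71.9, 98.0, 111 and 77.6 CPM. Slc40a1, from the iron list, stood at 44.9, 41.9, 20.7 and 12.2 CPM. Of the genes that chose the members, Fcna stood at 368, 328, 248 and 148 CPM, while Lyve1 (511, 504, 515 and 457 CPM) and Cd163 (770, 817, 812 and 791 CPM), stayed within 2-fold along the order, as did C1qa (4701, 4787, 4262 and 3935 CPM).

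The mesenchymal genes Col3a1 and Postn were among the 84 genes that were lower in the group with the most MHC class II. With members of at least 0.5% mesenchymal UMIs left out, Ccl8 stood at 2959 CPM in the lowest and 1193 CPM in the highest group, a log2 ratio of −1.31, with P2rx7 at −1.66, Slc40a1 at −1.87 and Ccr2 at 3.98.

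**Figure D5:**
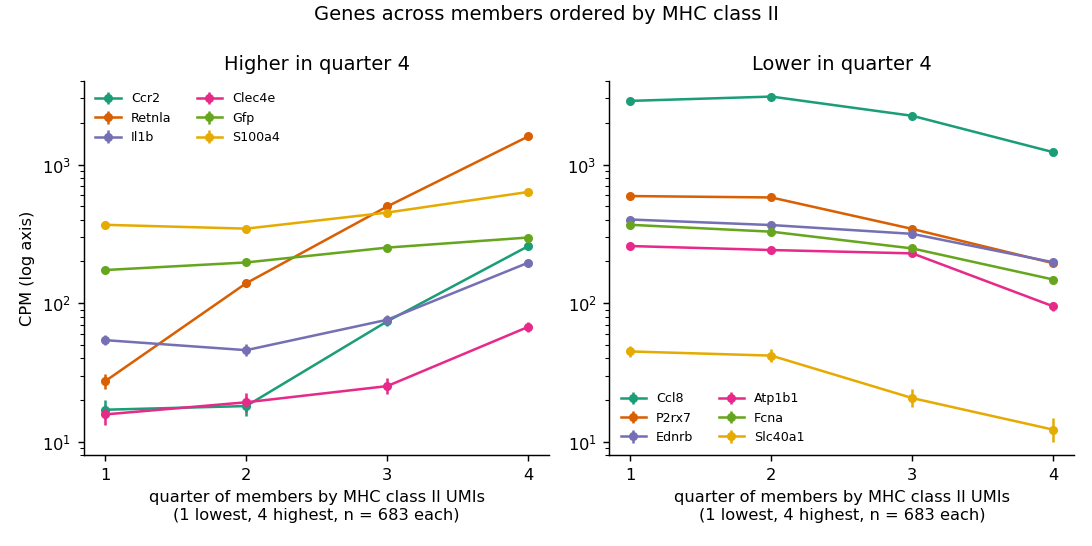
Levels in CPM, on a log axis, of genes in the 4 equal groups of Lyve1+ Folr2+ cells ordered by their MHC class II UMIs, with exact Poisson 95% intervals of counting. Between the lowest and highest groups, Ccr2 went from 17.1 to 258 CPM and Ccl8 from 2877 to 1227 CPM.

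Clustering of the members alone, without the genes of the choice, gave 7 subclusters, whose leading genes describe them and are no test. The largest had 740 members (27.1%) and was led by Ch25h, Tal1, Lilra5, Egr3 and Rcan1, with Ccl2 at 4651 CPM, Cxcl2 at 9106 CPM and Tnf at 915 CPM. The next, with 593 members (21.7%), was led by Ccr2, Slc7a11, Tnip3, H2-Aa and Clec4e and held Retnla at 1301 CPM and Ccl8 at 814 CPM. A further 553 members (20.2%) were led by the globins Hbb-bt, Hbb-bs and Hba-a1 with the interferon response genes Ifit3 and Ifit2, and held Ccl8 at 4904 CPM. Among all members, 86.9% had no globin UMI, and 9 members held 96.1% of the globin UMIs. At a clustering resolution of 1 the globin genes led 177 members and the Ifit genes led 84 others. The 451 members (16.5%) led by Exoc3l2, Cd209b, Dand5, Cd209d and Pla2g2d held Ccl8 at 3844 CPM and Cxcl2 at 1295 CPM.

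Smaller subclusters were led by genes of other kinds. In 217 members (7.94%), led by Sorbs2, Gria3, Klf12, Pde3a and Gulp1, Col1a1 stood at 2466 CPM, Dcn at 2997 CPM and Lyve1 at 262 CPM, with a median depth of 9627 UMIs. In 47 members (1.72%), led by Pimreg, Hist1h3c, Hmmr, Depdc1a and Hist1h1b, Mki67 stood at 641 CPM and Top2a at 587 CPM, with a median depth of 17392 UMIs. These are genes of dividing cells.

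When all 8742 deep barcodes were clustered, 4 of 23 clusters each held at least 5% of the members, and together 2263 of the 2732 (82.8%). These 4 were picked by the members they held, so the shares describe them only. The number of clusters without a member was 0. Outside the 4, members made up as much as 54.1% of a cluster of 111 barcodes. Of the 3002 barcodes in those 4 clusters, 75.4% were members, and in the cluster with the most members 976 of 1054 (92.6%) were. Predicted doublets were kept, and 51 members (1.87%) were among them. The share called over all filtered barcodes, 14.6%, was set in advance at 0.4% per 1000 barcodes and is no measured rate. The GFP+ library shared 372 of its 36400 barcodes (1.02%) with the GFP- library, and 23 members (0.842%) were among these.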

How the data were processed

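The deposited matrix of the GFP+ library gave UMI counts per gene and barcode, which the authors made with Cell Ranger and did not normalize. Per the labels the version was Cell Ranger 7.1.0 with the genome mm10, and the header of the matrix gives 8.0.1. The barcodes had passed cell calling. The library held 170648616 UMIs over 32287 features. The GFP- library entered only through its list of barcodes.

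Members and gene lists were chosen with earlier results of these data known. Levels are pooled CPM with exact Poisson 95% intervals, shares carry Clopper-Pearson intervals and ratios exact conditional ones. Genes at a mean of 5 CPM or more in a pair of groups were counted at 2-fold. Ratios are of CPM without a pseudocount, except that a count of 0 was replaced by 3 UMIs. Barcodes were thinned at random to 5000 UMIs for shares and spread. Doublets were scored with Scrublet in scanpy 1.11.5 and kept. Members were clustered by Leiden (python-igraph 0.11.9) on 1500 variable genes, 20 components and 20 neighbours at resolution 0.5, and all deep barcodes on 2000 genes and 30 components. The ratio step was tested on simulated data.

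The text names genes of the fixed lists, the 25 highest and 15 lowest ratios at a mean of 20 CPM or more (ribosomal, mitochondrial and unnamed models left out), and up to 5 leading genes of a subcluster. Retnla and Postn were named after their values were seen. Some genes that met these rules are not reported here. Positions and promoters came from RefSeq GRCm38.p6, while the study names both GRCm38 and GRCm39. The matrix has a second feature for green fluorescent protein with 2 UMIs, and reads that fit both would be lost, so Gfp may be too low in all groups alike. Alternatives were other depth, mitochondrial, choice and level limits, equal weight per barcode, removal of predicted doublets and, added after the data were seen, of barcodes with mesenchymal RNA. Tables were handled with pandas 2.3.3, intervals computed with scipy 1.17.1 and numpy 2.4.6, and plots drawn with matplotlib 3.10.9, under Python 3.11.15.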

Additional observations from a re-analysis of the deposited data

How the results depend on the processing

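No paired analysis was possible because 1 library was analysed, and no replicate could be left out. The members as a share of deep barcodes (31.2%) became 34.1% at 10000 UMIs or more, 20.4% at 2000 or more, 28.8% under 5% mitochondrial counts, 17.0% with at least 8 UMIs over all 4 genes and 39.4% with barcodes of at least 0.5% mesenchymal UMIs left out, an alternative added after the data were seen. The 565 genes that were higher became 302 with at least 8 UMIs over all 4 genes, which puts the members left out among the barcodes compared, 1092 against barcodes with at most 1 UMI of the 4 genes, 2771 with no limit on level and 288 at a mean of 20 CPM, and the 513 that were lower became 2112 and 264 under the last 2 of these. The last 2 change how many genes are tested, and for the others the cause was not tested. The log2 ratio of Gfp (−1.38) stayed below 0, at −1.48 for 10000 UMIs, −1.21 for 2000, −1.31 with no upper limits on Gpnmb, Chil3 and Ly6c2, −1.62 against barcodes with at most 1 UMI, −1.30 with equal weight per barcode and −1.44 without mesenchymal barcodes. Dcn turned from −1.21 to 0.11 without mesenchymal barcodes, and Fn1 moved from −2.60 to −4.73. Of 203 named genes 133 were past 2-fold, and 114 of these remained so with at least 8 UMIs over all 4 genes, where Mrc1 (0.99), Apoe (0.78) and Csf1r (0.73) did not, and 125 to 133 under the other alternatives. Igf1 (0.73) lost it at 2000 UMIs and Timd4 (0.90) against barcodes with at most 1 UMI. Subclusters of members numbered 16 at resolution 1. Depth of 5000 UMIs limits genes of a few CPM, whose absence from a barcode says little.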

Other observations

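A subcluster of 131 members (4.79%) was led by S100a9, Nphs1, Reg4, Hnf4aos and Cpb2, genes of neutrophils, kidney, gut and liver that are not known together from macrophages. In these members S100a9 stood at 354 CPM, S100a8 at 180 CPM, Nphs1 at 128 CPM (interval 111 to 148) and Hnf4aos at 77.2 CPM. Nphs1 stood at 1.82 CPM in the other members. The neutrophil gene Ly6g had 0 UMIs in all members.

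Genes of B cells were uneven in the members. Ighm, the heavy chain of IgM, stood at 158 CPM against 72.9 CPM in other myeloid barcodes and Bank1, a B cell scaffold protein, at 69.0 against 28.4 CPM, while Cd79a stood at 1.03 CPM and Ms4a1 at 1.83 CPM. Cd4, a coreceptor of T cells that some macrophages carry, stood at 20.4 against 7.17 CPM, with Trbc2 at 0 UMIs.

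Globin RNA was concentrated in few members. No globin UMI was found in 2374 members (86.9%), and 9 members with at least 100 globin UMIs held 96.1% of the 12665 in all members. Erythroid genes summed to 363 CPM in members and 959 CPM in other myeloid barcodes.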
